A study of Mus musculus with 16 samples.

Results

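The naive pluripotency factors are transcription regulators that hold mouse embryonic stem (ES) cells in the ground state of the early epiblast. Their 9 genes, Klf2, Klf4, Klf5, Esrrb, Tfcp2l1, Prdm14, Zfp42, Nr5a2 and Nr0b1, were chosen by name from the 27807 genes of the deposited table and followed through 8 groups of samples. All 9 were in the table and all 9 passed the filter on low values, a mean of at least 10 normalised counts, which 16124 genes passed. Polyadenylated RNA was sequenced in 16 libraries, 2 in each group, from mouse cells labelled as wild type (WT, Taf4+/+) or as lacking functional Taf4a on both alleles (Taf4a-/- in the sample titles, Taf4-/- in the genotype field, here KO). The ES cells grew in LIF on inactivated embryonic fibroblast feeders. Embryoid bodies, floating aggregates of differentiating ES cells, were taken in a protocol that leads to glutamatergic neurons: before retinoic acid (EB4), 24 h after it (EB5) and 96 h after it (EB8). Per the study's methods the lines were derived from blastocysts of crosses between heterozygous mice, and the KO allele lacks some Taf4a exons in every cell of the line. Each genotype is described as 2 independently derived lines. The labels number the libraries but do not tie a number to a line. A p-value therefore measures the spread between libraries within groups, pooled over the 8 groups. The main fit treats the 16 libraries as independent, although libraries of different stages can come from the same line.

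These factors form a dense network. Klf2, Klf4 and Klf5 are zinc finger proteins of the Krüppel-like family with overlapping roles, and Klf4 is a target of LIF signalling through Stat3. Esrrb and Nr5a2 are orphan nuclear receptors that bind related DNA half-sites, and Nr0b1 (Dax1) is a nuclear receptor relative without a DNA-binding domain that acts mainly as a corepressor. Tfcp2l1 is a grainyhead-related factor that works downstream of LIF, Prdm14 represses signalling and DNA methylation genes that favour the epiblast, and Zfp42 (Rex1) is a zinc finger protein long used as the marker of naive cells. In normal development and in differentiating cultures the network is shut down when cells leave the naive state. Taf4a encodes a component of TFIID, the complex that holds the TATA-binding protein and recognises core promoters.

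The promoters below are those of the 3 members with a sequence in the reference table whose loss from ES to EB8 differed between genotypes, Esrrb, Tfcp2l1 and Nr5a2, and that of Klf4, whose level at EB8 did not pass the test between genotypes. They are shown because TFIID acts at such windows. Each window runs from 250 bases before to 50 bases after an annotated start, 5′ to 3′ on the strand of the gene. The sequences are from RefSeq (table of build GRCm38.p6), and each matched build NCBI37 (mm9) exactly at 1 place, whose coordinates are given. Capitals mark TATAAA, the core of the TATA box, and CCACCC, the core bound by Klf proteins, on either strand (TTTATA and GGGTGG when read on the other strand). No matches overlapped.

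Esrrb, start 1, chr12:87701817-87702116, plus strand: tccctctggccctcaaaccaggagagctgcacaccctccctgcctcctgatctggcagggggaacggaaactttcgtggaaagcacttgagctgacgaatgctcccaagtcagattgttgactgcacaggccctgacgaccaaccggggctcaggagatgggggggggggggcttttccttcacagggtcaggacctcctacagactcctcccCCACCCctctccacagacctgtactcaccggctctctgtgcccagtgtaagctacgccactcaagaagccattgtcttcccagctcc
Esrrb, start 2, chr12:87762344-87762643, plus strand: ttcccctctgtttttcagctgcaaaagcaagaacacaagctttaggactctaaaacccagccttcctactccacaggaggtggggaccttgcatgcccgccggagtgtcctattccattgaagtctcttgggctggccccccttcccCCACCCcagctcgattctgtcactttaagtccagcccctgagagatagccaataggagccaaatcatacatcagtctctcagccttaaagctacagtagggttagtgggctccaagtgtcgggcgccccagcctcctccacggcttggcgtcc
Tfcp2l1, chr1:120524272-120524571, plus strand: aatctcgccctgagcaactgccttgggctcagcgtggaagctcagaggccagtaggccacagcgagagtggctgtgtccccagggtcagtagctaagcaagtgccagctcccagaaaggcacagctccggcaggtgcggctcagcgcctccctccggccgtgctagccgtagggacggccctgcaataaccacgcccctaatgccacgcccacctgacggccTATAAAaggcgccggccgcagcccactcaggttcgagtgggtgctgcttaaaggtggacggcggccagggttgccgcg
Nr5a2, start 1, chr1:138856976-138857275, minus strand: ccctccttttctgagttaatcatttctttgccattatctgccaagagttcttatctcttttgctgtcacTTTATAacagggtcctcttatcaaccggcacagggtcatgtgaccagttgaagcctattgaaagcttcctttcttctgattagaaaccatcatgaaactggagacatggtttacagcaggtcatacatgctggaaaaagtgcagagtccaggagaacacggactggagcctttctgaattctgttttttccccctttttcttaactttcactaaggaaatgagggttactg
Nr5a2, start 2, chr1:138850158-138850457, minus strand: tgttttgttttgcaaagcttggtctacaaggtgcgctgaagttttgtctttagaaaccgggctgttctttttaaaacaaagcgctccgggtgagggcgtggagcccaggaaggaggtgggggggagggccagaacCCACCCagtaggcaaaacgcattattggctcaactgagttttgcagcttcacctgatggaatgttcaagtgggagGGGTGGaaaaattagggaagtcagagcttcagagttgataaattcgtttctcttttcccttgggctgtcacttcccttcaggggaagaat
Klf4, chr4:55545298-55545597, minus strand: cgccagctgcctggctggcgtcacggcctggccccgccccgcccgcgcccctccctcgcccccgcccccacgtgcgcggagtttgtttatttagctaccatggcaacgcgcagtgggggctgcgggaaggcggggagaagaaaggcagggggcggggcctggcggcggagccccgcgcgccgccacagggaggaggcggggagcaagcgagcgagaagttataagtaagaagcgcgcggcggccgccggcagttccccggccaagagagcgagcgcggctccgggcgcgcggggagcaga

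The table held 9 windows for 7 of the genes, and none was printed for Klf5 and Prdm14. TATAAA was present in 3 of the 9 windows, against 13.6% of all 32851 promoters. In Tfcp2l1 it began 28 bases before the start and in Nr0b1 32 bases before it, while in Nr5a2 start 1 it lay on the other strand, 181 bases upstream. CCACCC was present in 6 of the 9 windows, those of Klf2, Zfp42, Nr0b1, both starts of Esrrb and start 2 of Nr5a2, against 31.5% of all promoters. AAGGTCA, the half-site of Esrrb and Nr5a2, was in 0 of the 9 windows and in 4.72% of all promoters. Such matches describe the letters of these windows.

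In the genome (NCBI37) the members lie on 6 chromosomes. Tfcp2l1 (ENSMUSG00000026380, chr1:120524522-120581744), Prdm14 (ENSMUSG00000042414, chr1:13103538-13117244) and Nr5a2 (ENSMUSG00000026398, chr1:138740161-138857004) are on chromosome 1. Klf2 (ENSMUSG00000055148, chr8:74842932-74845555) and Zfp42 (ENSMUSG00000051176, chr8:44380422-44392363) are on chromosome 8. Klf4 (ENSMUSG00000003032, chr4:55540013-55545347), Klf5 (ENSMUSG00000005148, chr14:99697910-99712624), Esrrb (ENSMUSG00000021255, chr12:87702067-87862578) and Nr0b1 (ENSMUSG00000025056, chrX:83437103-83441286) are on chromosomes 4, 14, 12 and X. All are annotated as protein coding, and the values are sums over their exons. Exons of Tfcp2l1 overlap a U1 snRNA gene, and no other member shares exon bases with another annotated gene.

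Depth ran from 32631020 to 40711826 reads in genes for ES libraries and from 22442118 to 27685306 for embryoid bodies, so a batch of sequencing, if there was 1, cannot be told apart from stage. Taf4a itself was not lower in the KO libraries (1752 to 1858 normalised counts in WT ES, 2388 to 2400.0 in KO ES), and a count per gene does not resolve the deleted exons, so genotypes are named as labelled. The level of chromosome 8, the median log2 deviation of its genes from their mean, lay between 0.40 and 0.41 in the 3 embryoid body libraries of WT replicate 1, and between -0.16 and 0.04 in the remaining 13. That of chromosome X was 0.35 to 0.55 in WT ES replicate 2 and in KO replicate 2 at each stage, and -0.25 to -0.16 in the other 11. Chromosome 11, which holds no member, was at 0.18 to 0.28 in KO replicate 1 at each stage and at -0.13 to 0.03 in the remaining libraries. Removing these chromosome levels changed the count of members called in none of the 16 comparisons. The removal shifts each gene only by the level of its own chromosome. Levels of chromosomes 1, 4, 12 and 14 ran from -0.11 to 0.12, so it could move members there by little. Whether libraries with a raised chromosome differ in genes of other chromosomes was not tested. In bulk RNA, fewer cells that express a gene and less RNA per cell cannot be told apart.

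In WT ES cells all 9 factors were expressed. Levels are given here as normalised counts per kilobase of exon, the mean and SD of 2 libraries. Klf2 (1831 ± 1494) and Esrrb (1719 ± 707) stood first, followed by Klf5 (1325 ± 299.2), Nr0b1 (1317 ± 668), Klf4 (1067 ± 155) and Zfp42 (996 ± 33.8). The libraries of each neighbouring pair in that order overlapped, so neighbours cannot be ranked beyond their spread. Both libraries of Esrrb (1219.6 and 2219) lay above those of Klf4 (957 and 1176) and Zfp42 (972 and 1019.6). Those of Klf5 (1113 and 1536) also lay above those of Zfp42. Tfcp2l1 (675 ± 61.1) lay below them, and Nr5a2 (280.0 ± 16.5) and Prdm14 (235 ± 233), whose libraries overlapped, were lowest. In KO ES cells the order ran from Esrrb (2997 ± 140) through Nr0b1 (2661 ± 181) and Klf2 (2622 ± 275) to Nr5a2 (507 ± 90.8) and Prdm14 (319 ± 22.6). The WT ES libraries differed more from each other than the KO ES libraries in 7 of the 9 genes, as the lower SD of KO shows for all but Zfp42 and Nr5a2. WT ES replicate 1 had the lower value of 7 factors, all but Klf5 and Nr5a2, and Prdm14 showed the widest gap (181 against 1025 normalised counts).

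**Figure D1:**
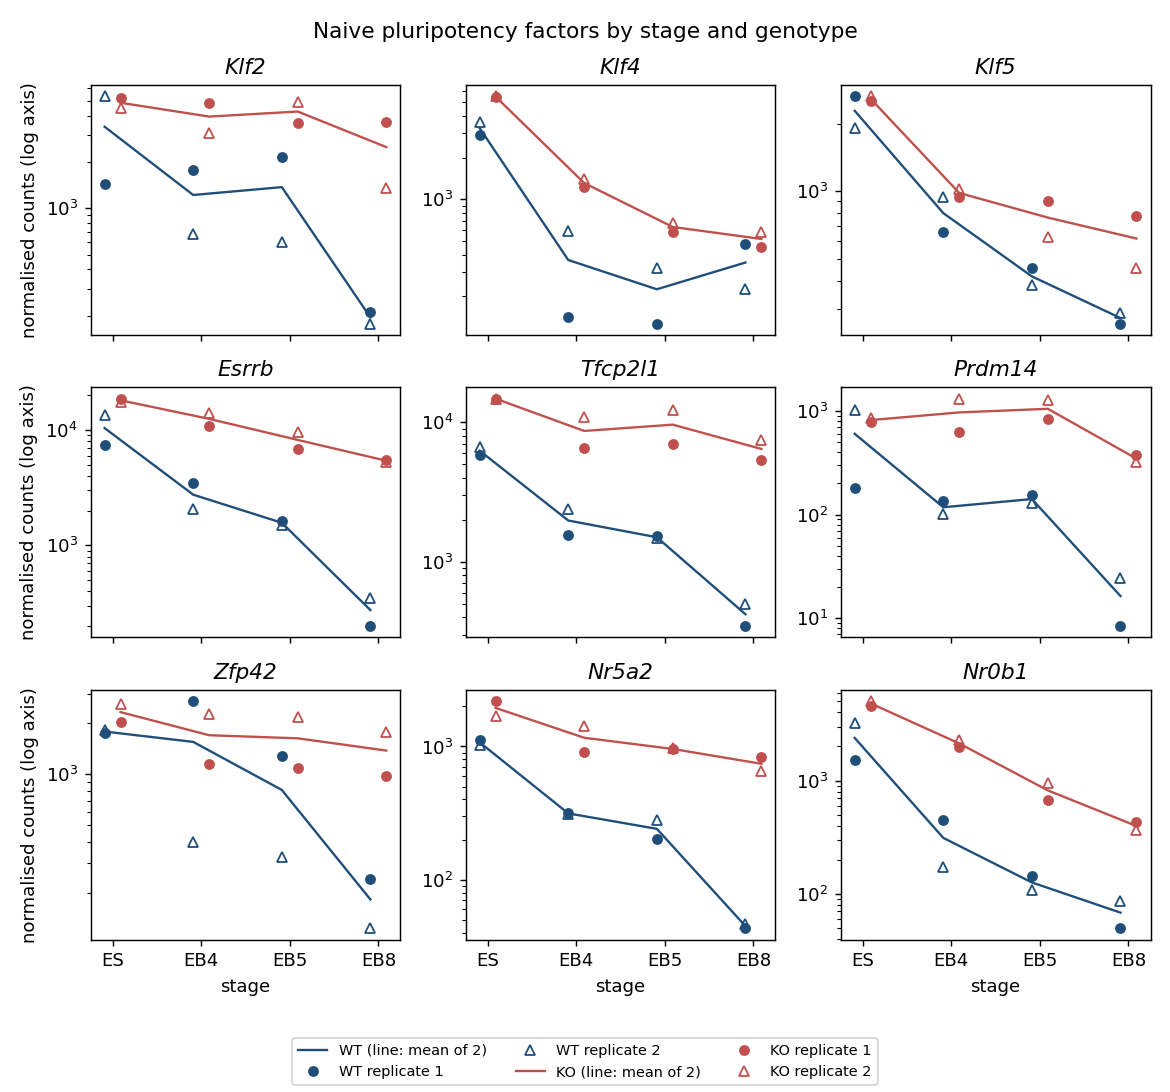
Normalised counts of each factor (y axis, log scale) at ES, EB4, EB5 and EB8 (x axis). Points are libraries (filled circles replicate 1, open triangles replicate 2), lines join the means of 2 libraries, blue WT and red KO. At EB8 both KO libraries lie above both WT libraries in 8 panels, and the genotypes overlap in the panel of Klf4.

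The course of the WT groups describes when the network was lost. The raised chromosome X level of WT ES replicate 2 was in no WT embryoid body library. That of chromosome 8 in WT embryoid body replicate 1 was in no WT ES library. The log2 difference between replicates 2 and 1 correlated over genes at -0.18 to -0.05 between WT ES and the WT embryoid body stages. Among the WT embryoid body stages it correlated at 0.52 to 0.61. Whether the WT ES and WT embryoid body libraries hold the same lines was not tested. Any difference between lines enters each WT change from ES, each share of the WT ES level and each genotype difference of a change from ES. From ES to EB8 all 9 factors fell, with log2 changes from -5.23 to -3.04 (median -3.91), where 22.8% of all tested genes fell. The EB8 mean was 2.64% to 12.0% of the ES mean, with a median of 5.78%. Esrrb lost most (log2 change -5.23, standard error 0.33, limma adjusted p 8.59e-07), followed by Nr0b1 (-5.06 ± 0.44, limma adjusted p 5.94e-06), and Klf5 lost least (-3.04 ± 0.28, limma adjusted p 8.31e-06). The 9 falls held when any single library was left out.

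The calls fell in the first and the last step. The step between them holds only the first 24 h of retinoic acid. Between ES and EB4, before retinoic acid, 6 factors fell in WT against 7.57% of all genes, namely Klf4 (log2 change -3.49), Nr0b1 (-2.99), Esrrb (-1.90), Nr5a2 (-1.77), Tfcp2l1 (-1.69) and Klf5 (-1.52). Klf2 (-1.34), Prdm14 (-1.88) and Zfp42 (-0.78) did not pass (limma adjusted p 0.206, 0.0747 and 0.537), though edgeR and DESeq2 called Prdm14 (adjusted p 0.033 and 0.0018). None passed between EB4 and EB5, where 1.14% of all genes fell. In that step 3 factors had an unadjusted p below 0.05 (Klf5, Esrrb and Nr0b1), beside 14.8% of all genes. DESeq2 called 1 there (Klf5) and edgeR 0, and Nr0b1 passed without WT EB4 replicate 2. Between EB5 and EB8, 5 factors fell against 4.62% of all genes, namely Prdm14 (-3.20), Esrrb (-2.57), Klf2 (-2.54), Nr5a2 (-2.38) and Tfcp2l1 (-1.86). Without WT EB5 replicate 1 or WT EB8 replicate 1 this count was 3, with Klf2 and Prdm14 not called, and without WT EB8 replicate 2 Klf2 was not called.

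The timing of the loss is described here by the share of the total in each step. The steps differ in length, as EB5 and EB8 were taken 24 h and 96 h after retinoic acid, so shares are not rates. For Klf4, 106% of the total log2 loss in WT lay before EB4, and its values at EB8 (474 and 228) were not below those at EB5 (127 and 323). Nr0b1 had 59.0% of its loss before EB4 and Klf5 49.8%. Klf2 and Prdm14 had 66.4% and 66.5% of theirs between EB5 and EB8, and Zfp42 had 56.5%. The shares of Klf2 and Prdm14 rest on WT ES libraries far apart (1432 and 5334, 181 and 1025 normalised counts). Without WT ES replicate 1 the change of Prdm14 from ES to EB4 was -3.13, beside -1.88 with it, so its late share depends on that library. Esrrb, Tfcp2l1 and Nr5a2 lost 36.4%, 43.3% and 38.8% before EB4 and 49.0%, 47.4% and 52.3% between EB5 and EB8. The differences between these shares were not tested.

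**Figure D2:**
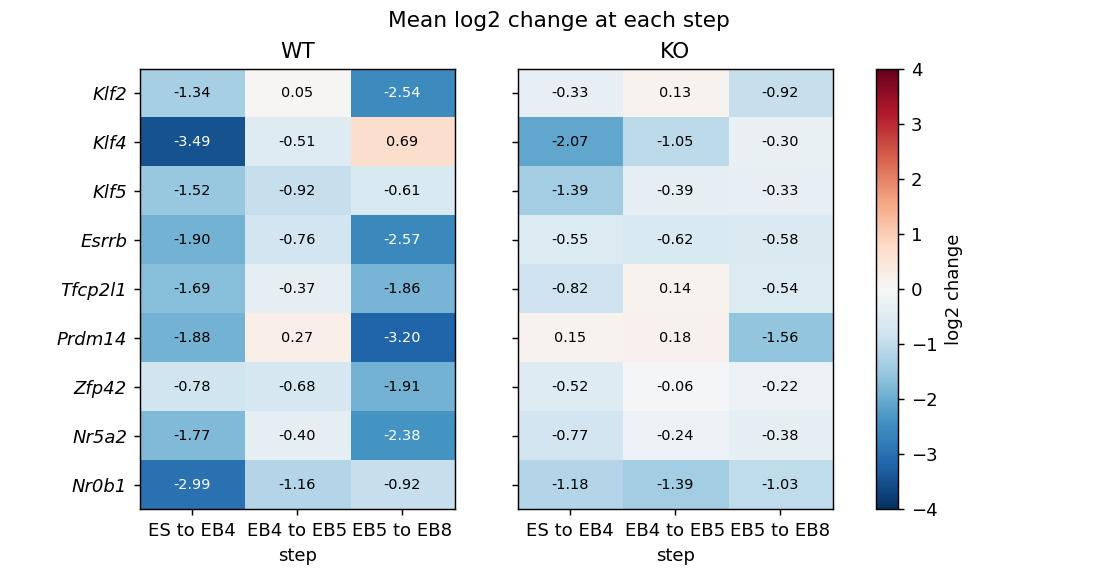
Mean log2 change of each factor (rows) at each step (columns), WT on the left and KO on the right, on a colour scale from blue (lower) to red (higher) with the value printed. In WT the lowest values are -3.49 for Klf4 in the first step and -3.20 for Prdm14 in the last, and the last step of Klf4 is 0.69, while in KO no step of Esrrb, Nr5a2, Tfcp2l1 or Zfp42 is below -0.82.

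KO against WT was compared at each stage to ask whether the mutant cells shut the network down. At ES limma called none of the 9 factors and 0% of all genes. At an unadjusted p below 0.05 in limma were 4 factors and 11.4% of all genes. There edgeR also called 0 factors and 0 genes, while DESeq2 called 2 factors (Tfcp2l1 and Nr5a2, adjusted p 0.0127 and 0.0355) among 104 genes higher and 372 lower in KO. Fibroblast markers of the feeder layer summed to 1201 to 2885 normalised counts in WT ES and to 273 to 598 in KO ES, and their part in the ES values was not tested. In KO, 6 factors were higher at EB4, 5 at EB5 and 8 at EB8, and none was lower at any stage. The background of genes called higher was 2.75% at EB4, 2.17% at EB5 and 10.4% at EB8, and that of genes called lower 3.37%, 2.17% and 12.5%. The median log2 difference of the 9 was 0.85 at ES, 2.12 at EB4, 2.01 at EB5 and 3.50 at EB8, beside -0.00 to -0.03 for all tested genes. Both KO libraries lay above both WT libraries for 6 factors at ES, 7 at EB4, 8 at EB5 and 8 at EB8, an arrangement that 19%, 25.3%, 26.7% and 30.4% of all genes had at these stages.

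**Figure D3:**
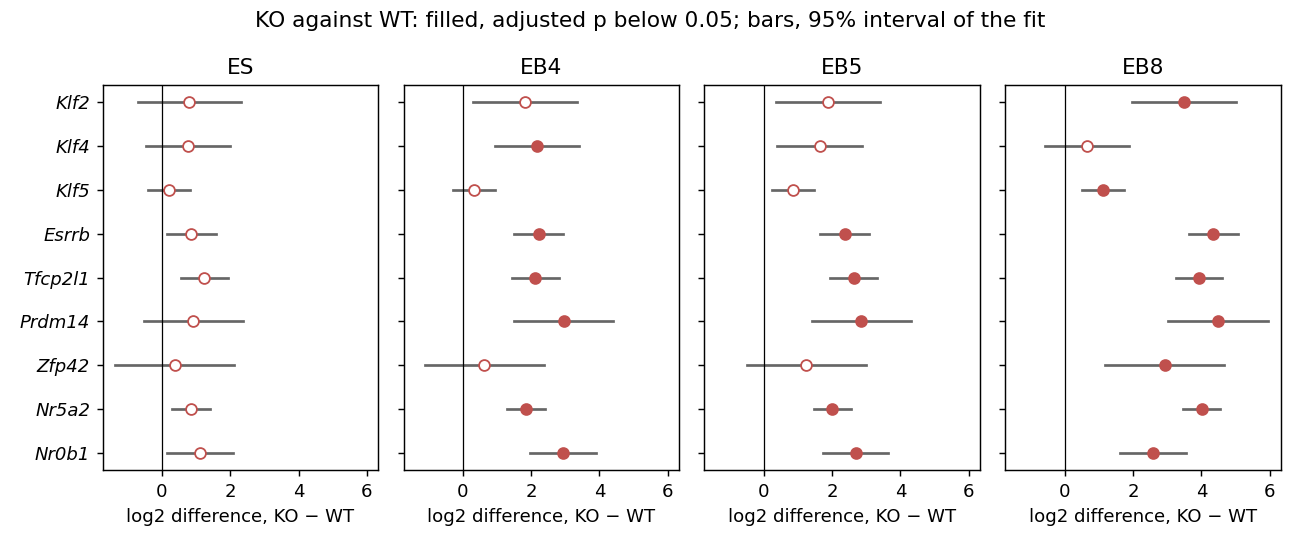
Log2 difference, KO minus WT (x axis), for each factor (rows) at 4 stages (panels). Bars are 95% intervals of the limma fit, filled points have an adjusted p below 0.05, and open points do not. No point is filled at ES, and at EB8 all but Klf4 (0.65, interval -0.59 to 1.88) are filled.

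The nuclear receptor genes were higher in KO at all 3 embryoid body stages. Esrrb, a direct activator of many naive genes, had 7375 and 13418 normalised counts in WT ES, and KO ES had 18717 and 17523. Its WT libraries gave 3449 and 2053 at EB4, where KO gave 10906 and 14100.1, and 1637 and 1501 at EB5, where KO gave 6788 and 9635. By EB8 the WT libraries were down to 199.5 and 349, with 5511 and 5325 in KO. The genotypes did not overlap at any of the 4 stages, and the KO values at EB8 were above both WT values at EB4. The log2 difference was 0.86 at ES (limma adjusted p 0.343), 2.22 at EB4 (0.0073), 2.37 at EB5 (0.00849) and 4.35 at EB8 (standard error 0.33, limma adjusted p 1.44e-05), the last a 19.7-fold ratio of means.

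Nr5a2, which can stand in for Pou5f1 in reprogramming, had 1119 and 1029 normalised counts in WT ES, and KO ES had 2192 and 1699.6. It had 319 and 309.9 in WT EB4 against 905 and 1419 in KO, and 200.4 and 281 in WT EB5 against 949 and 967. The EB8 values were 43.1 and 46.6 for WT, with 831 and 651 for KO. Again the genotypes did not overlap at any stage. KO minus WT on the log2 scale was 0.85 at ES (limma adjusted p 0.207), 1.85 at EB4 (0.00503), 2.01 at EB5 (0.00681) and 4.01 at EB8 (standard error 0.25, limma adjusted p 7.53e-06), a 16.5-fold ratio.

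Nr0b1, the corepressor relative, fell in KO as well as in WT. It had 1526 and 3235 normalised counts in WT ES, with 4579.9 and 5042 in KO ES, and 450.4 and 173 in WT EB4 against 1987 and 2269. It had 144 and 108 in WT EB5 against 679.8 and 958, and 49.4 and 86.8 in WT EB8 against 429 and 364. The genotypes did not overlap at any stage, with log2 differences of 1.11 at ES (limma adjusted p 0.366), 2.92 at EB4 (0.0081), 2.69 at EB5 (0.0128) and 2.58 at EB8 (standard error 0.44, limma adjusted p 0.00167). It lies on chromosome X, and the libraries with the raised level of that chromosome were the higher ones of their group in WT ES and in KO at ES, EB4 and EB5, and the lower one in KO EB8. With the chromosome level removed the log2 differences were 2.58 at EB4, 2.40 at EB5 and 2.26 at EB8 (limma adjusted p 0.00928, 0.0138 and 0.00318).

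Tfcp2l1, a LIF-dependent factor, had 5861 and 6661 normalised counts in WT ES, with 14788 and 14795 in KO ES, a log2 difference of 1.24 (limma adjusted p 0.144, unadjusted p 0.00174) that DESeq2 called (adjusted p 0.0127). It had 1553 and 2399 in WT EB4 against 6509 and 10854, and 1523 and 1474 in WT EB5 against 7036 and 12228. At the last stage WT had 345 and 494, and KO 5403 and 7489. The genotypes were apart at all 4 stages, by 2.12 at EB4 (limma adjusted p 0.00727), 2.63 at EB5 (0.00506) and 3.94 at EB8 (standard error 0.31, limma adjusted p 1.72e-05). The lower KO library at EB8 was close to the lower WT ES library.

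Prdm14, the epigenetic guard of naive cells, had 181 and 1025 normalised counts in WT ES, overlapping the 777 and 859 of KO ES. It had 135 and 101 in WT EB4 against 624 and 1317, and 154 and 128 in WT EB5 against 829.6 and 1273. WT EB8 had 8.4 and 24.4, and KO EB8 372 and 323. The KO means at EB4 and EB5 were 119% and 129% of the KO ES mean. KO minus WT was 2.95 on the log2 scale at EB4 (limma adjusted p 0.0279), 2.86 at EB5 (0.036) and 4.49 at EB8 (standard error 0.67, limma adjusted p 0.000716), a 21.2-fold ratio that rests on few counts in WT. At ES it was 0.92 (limma adjusted p 0.649), and it was -0.33 without WT ES replicate 1. The call at EB4 was lost with a fit of the compared groups alone. It was also lost without WT EB4 replicate 1, WT EB4 replicate 2 or KO EB4 replicate 2. That at EB5 was lost without a filter on low values and whichever library of that stage was left out.

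Zfp42, the classical naive marker, had 1749 and 1835 normalised counts in WT ES, and KO ES had 2054 and 2613. In WT EB4 it had 2714 and 399, with 1147 and 2261 in KO, and in WT EB5 1293 and 325, with 1095 and 2172. The WT EB8 libraries had 242 and 123, and those of KO 983 and 1782. Replicate 1 was the high WT library at EB4, EB5 and EB8, the 3 libraries in which the level of its chromosome 8 was raised. With that level removed the log2 differences were 0.86, 1.44 and 3.10 at EB4, EB5 and EB8 (limma adjusted p 0.439, 0.206 and 0.00409). Differences on the log2 scale were 0.63 at EB4 (limma adjusted p 0.685), 1.25 at EB5 (0.41) and 2.93 at EB8 (standard error 0.80, limma adjusted p 0.0199). At EB8 the call was lost without WT EB8 replicate 2 (2.45, limma adjusted p 0.131) or KO EB8 replicate 2 (2.51, 0.118).

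The 3 Klf genes differed in which stages were called. Klf2 had 1432 and 5334 normalised counts in WT ES, with 5203 and 4483 in KO ES, 1760.1 and 678 in WT EB4 against 4792 and 3083, and 2142 and 601 in WT EB5 against 3601 and 4893. Values at EB8 were 213 and 178 for WT, and 3643 and 1345 for KO. The genotypes did not overlap in the embryoid bodies, and the WT libraries with the raised chromosome 8 level were again the higher ones. With that level removed the log2 difference at EB8 was 3.67 (limma adjusted p 0.00132). The differences, KO minus WT on the log2 scale, were 1.81 at EB4 (limma adjusted p 0.144), 1.89 at EB5 (0.147) and 3.50 at EB8 (standard error 0.70, limma adjusted p 0.00403).

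Klf4, the Stat3 target, had 2929 and 3599 normalised counts in WT ES, and KO ES had 5475 and 5538. It had 141 and 589.8 in WT EB4 against 1231 and 1392, and 127 and 323 in WT EB5 against 586 and 679.7. WT EB8 had 474 and 228, overlapping the 454 and 583 of KO EB8. Up to EB5 the KO values lay above those of WT. The log2 difference was 2.18 at EB4 (limma adjusted p 0.0447), 1.63 at EB5 (0.125) and 0.65 at EB8 (95% interval -0.59 to 1.88, limma adjusted p 0.448). The call at EB4 was lost without a filter on low values, with quantile normalisation, with a fit of the compared groups alone, with edgeR and without any of 3 libraries (WT EB4 replicate 1, KO EB4 replicate 1 or KO EB4 replicate 2).

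Klf5, which also acts in the trophectoderm, had 2644 and 1916 normalised counts in WT ES, with 2512 and 2642 in KO ES, 658 and 940.4 in WT EB4 against 938 and 1026, and 454 and 381 in WT EB5 against 902 and 624. Its EB8 libraries gave 257 and 288 in WT, and 774 and 457 in KO. The genotypes overlapped at ES and at EB4 and were apart later. The log2 difference was 0.32 at EB4 (limma adjusted p 0.54), 0.85 at EB5 (0.109, called by DESeq2 with adjusted p 0.0383) and 1.13 at EB8 (standard error 0.28, limma adjusted p 0.0132), the smallest of the differences called at EB8. That call was lost without WT EB8 replicate 1, WT EB8 replicate 2 or KO EB8 replicate 1 (limma adjusted p 0.0729, 0.0504 and 0.128), and with a fit of the compared groups alone (0.0619).

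The counts of calls at EB4 and EB5 rested on single libraries. Without KO EB4 replicate 2, 0 factors and 0 genes in all passed at EB4, although 7 factors had an unadjusted p below 0.05 and their median difference was 2.03. Without KO EB5 replicate 2, 0 factors and 0 genes passed at EB5 (median difference 1.99), and without WT EB5 replicate 2 the count was 2. Left-out fits assume that the remaining library of a group varies like those of the other groups. At EB8 leaving out any library left 6 or 7 factors called. Esrrb, Tfcp2l1, Prdm14, Nr5a2, Nr0b1 and Klf2 passed at EB8 under the 13 other settings and with any of the 4 libraries left out.

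Part of the network also fell in KO over the same course. From ES to EB8 6 factors fell in KO, where 18% of all genes fell, namely Nr0b1 (log2 change -3.60), Klf4 (-3.42), Klf5 (-2.11), Esrrb (-1.74), Nr5a2 (-1.39) and Tfcp2l1 (-1.22). Klf2 (-1.12), Prdm14 (-1.23) and Zfp42 (-0.81) did not pass (limma adjusted p 0.225, 0.168 and 0.456). Without KO EB8 replicate 1, Tfcp2l1 was not called (limma adjusted p 0.0765). Between ES and EB4 the single call in KO was Klf5 (-1.39, limma adjusted p 0.0245), where 0.992% of all genes fell, and it was lost when any of the 4 libraries was left out. None was called between EB4 and EB5 (background 0.695%, 1 with DESeq2, 0 with edgeR) or between EB5 and EB8 (background 0.31%, 0 with DESeq2, 0 with edgeR). At an unadjusted p below 0.05 were 1 factor and 16.3% of all genes between EB4 and EB5. Between EB5 and EB8 these were 2 factors and 12.8% of all genes.

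The share of the ES level left at EB8 describes how far each gene came. In KO it ran from 8.25% for Nr0b1 and 9.41% for Klf4 to 51.5% for Klf2 and 59.3% for Zfp42, with a median of 38.1%, against a median of 5.78% in WT. Klf4 had 10.7% left in WT and 9.41% in KO. The KO EB8 libraries were also set beside earlier WT stages. Both KO EB8 libraries were above both WT EB4 libraries for Esrrb, Tfcp2l1, Prdm14 and Nr5a2, which is 4 of 9 where 31.6% of all genes had this arrangement, a share near the background. They were above both WT EB5 libraries for 7 factors, all but Klf2 and Zfp42 (27.5% of all genes).

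**Figure D4:**
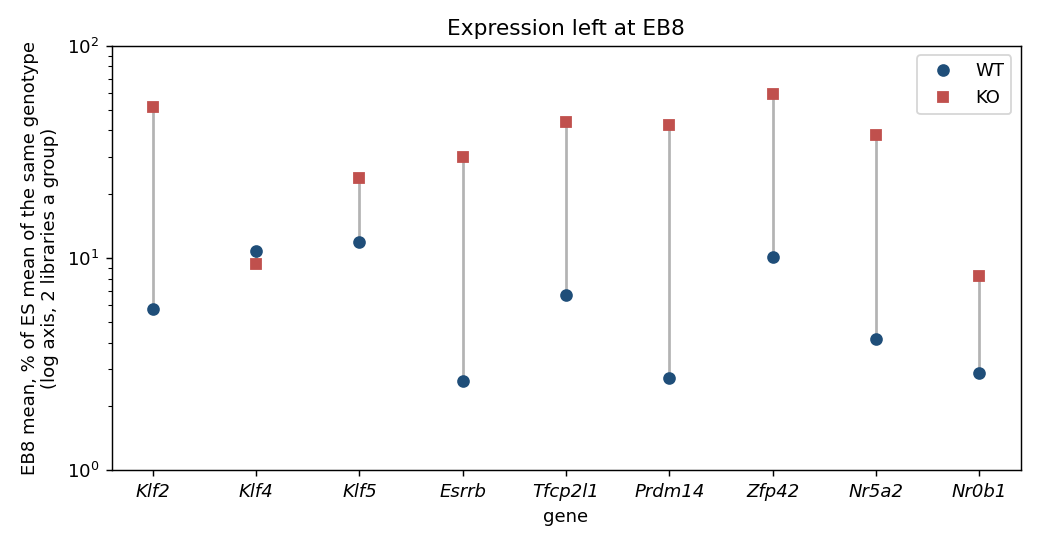
Mean at EB8 as a percent of the ES mean of the same genotype (y axis, log scale) for each factor (x axis), WT as blue circles and KO as red squares, 2 libraries a group. WT lies between 2.64% and 12.0%. KO lies between 8.25% and 59.3%, above WT for 8 factors and slightly below it for Klf4.

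Whether the change itself differed between genotypes was tested with interaction terms. Between ES and EB8 the KO change minus the WT change was above 0 past the threshold for 4 factors, against 3.85% of all genes, namely Prdm14 (3.57), Esrrb (3.49), Nr5a2 (3.16) and Tfcp2l1 (2.70). Klf2 (2.70, limma adjusted p 0.115), Zfp42 (2.56, 0.184), Nr0b1 (1.46, 0.173) and Klf5 (0.93, 0.172) did not pass. Klf2 passed with DESeq2 (3.16, adjusted p 0.00882) and without WT ES replicate 1 (3.64, limma adjusted p 0.0331), and Zfp42 with a fit of the compared groups alone (limma adjusted p 0.033). For Klf4 it was -0.12 (95% interval -1.86 to 1.63), and it was 0.08 and 0.23 with upper-quartile rescaling and quantile normalisation. Esrrb, Tfcp2l1 and Nr5a2 kept the call when any library was left out, while Prdm14 lost it in 6 of 8 cases. Between EB5 and EB8 Nr5a2 alone passed (2.00, limma adjusted p 0.0265, background 0.0992%), and it lost the call when any library but WT EB5 replicate 1 was left out. None passed for the first step (background 0%, 0 with DESeq2, 0 with edgeR) or the second (background 0%, 0 with either tool). At an unadjusted p below 0.05 were 3 factors for the first step and 0 for the second, against 7.00% and 2.96% of all genes. As no gene passed in limma for either step, these counts do not show that the early changes were alike in the genotypes.

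Of the partners of the naive factors, many core genes were also higher in KO. Among 16 other core and naive-state genes, 0 were called at ES, 0 were lower at any stage, and the count higher in KO was 7 at EB4, 7 at EB5 and 12 at EB8. Of all genes, 2.75%, 2.17% and 10.4% were called higher at these stages. The median log2 difference of the 16 at EB8 was 3.10. The largest were Nanog (5.41, limma adjusted p 7.67e-05), Sox15 (5.08), the Akt cofactor Tcl1 (4.93) and the ES cell growth factor Fgf4 (4.80). Pou5f1, a direct activator of several members, had 193 and 260 normalised counts at EB8 in WT, with 3218 and 3689.99 in KO EB8 (limma adjusted p 5.57e-05). Sox2, its partner on DNA, had 3951 and 5241 in WT, with 6517 and 3904 in KO, a log2 difference of 0.15 that did not pass (limma adjusted p 0.697).

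The inputs to the network were compared from lists of its upstream pathways. All tested genes were called higher in 2.75% and lower in 3.37% at EB4, and in 10.4% and 12.5% at EB8. A single call at EB8 in lists this short is near these shares. Of 7 genes of the LIF receptor and Stat3 pathway, 0 were called at ES, 2 were higher in KO at EB4 (Lifr and Il6st), 0 were called at EB5 and 1, the kinase gene Jak1, was higher at EB8 (0.51, limma adjusted p 0.0285). Stat3 had a log2 difference of 0.40 at EB8 (limma adjusted p 0.313). Of 9 regulators of exit from the naive state, 0 were called at ES, 1 was lower at EB4, 0 were called at EB5, and 3 were higher and 1 lower at EB8. The gene lower at EB4 was Tcf7l1, a repressor of Esrrb, Klf2 and Nanog, at 4267 and 4133 normalised counts in the WT libraries and 2265 and 1973 in those of KO (log2 difference -0.99, limma adjusted p 0.0277). At EB8 it did not differ past the threshold (-0.04, limma adjusted p 0.915). Those called at EB8 were the orphan receptor Nr6a1, which represses Pou5f1 (1.59), the folliculin complex genes Flcn (0.93) and Fnip1 (0.83), and the chromatin subunit gene Mbd3 (-0.70).

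At EB8 the relatives of the members by family were called about as often as all genes. Of 17 tested, 0 were called at ES and EB5, and 2 were lower at EB4, beside 3.37% of all genes. At that last stage 2 were higher and 3 lower, beside 10.4% and 12.5% of all genes, with a median log2 difference at EB8 of 0.06. Esrrg, a relative of Esrrb, had 272 and 339 normalised counts in WT EB8, but 14.8 and 24.5 in KO EB8 (-3.92, limma adjusted p 0.000455), the opposite direction to Esrrb. Klf9 (2.19) and Klf6 (1.09) were higher and Klf7 (-0.87) and Klf13 (-0.74) lower in KO.

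Of 11 formative and primed epiblast genes, the next state of such cells, 0 were called at ES. In KO 1 was higher at EB4 and 1 at EB5 (Dnmt3a at both), beside 2.75% and 2.17% of all genes. By EB8 1 was higher and 4 lower (median -0.06), beside 10.4% and 12.5% of all genes. Utf1 was the higher gene at EB8 (2.98), and Sox3 (-4.58), Foxd3 (-3.09) and Cdh2 (-2.25) were the lower ones with the largest differences. Sox3 and Cdh2 are also used by neural progenitors.

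Markers of other cell types moved with genotype at several stages, and their part in the values of the naive factors was not tested. For comparison, 2.75%, 2.17% and 10.4% of all genes were called higher at EB4, EB5 and EB8, and 3.37%, 2.17% and 12.5% lower. The summed level of the 12 fibroblast markers was lower in KO, with no overlap, at EB4 (638 to 660 against 1214 to 1679) and EB5 (1546 to 1640 against 2144 to 3175), as at ES, and overlapped at EB8 (2808 to 3536 in WT, 1783 to 4301 in KO). Of the 10 tested, 0 were called at any stage. Lum and S100a4 were at 0 in some libraries and Col1a1 was present in every library. Of 10 trophoblast markers, 0 were called at ES and EB4, 1 was higher in KO at EB5 and 3 at EB8 (Eomes 4.51, Tfap2c 3.50 and Ascl2 2.77). Their median log2 difference was -1.16 at ES, 0.84 at EB4, 1.20 at EB5 and 0.93 at EB8. Their summed level, which abundant genes dominate, was lower in both KO libraries at ES (4666 to 9468 against 12794 to 18972). It was also lower at EB4 (8569 to 10198 against 11920 to 21715), opposite to the median there. The sum was higher in both KO libraries at EB5 (11410.3 to 12839 against 9583 to 11346) and overlapped at EB8 (8783 to 25639 in KO, 11730.2 to 18125 in WT). Of 8 germ cell markers, which share Dppa3 with the naive list and Tfap2c with the trophoblast list, 5 were higher in KO at EB8 (2 at EB5, 1 at EB4, 0 at ES), with a summed level of 5039.6 to 8309 against 879.8 to 984 in WT EB8 and sums apart in the same direction at EB4 and EB5. Of 6 endoderm markers tested, 3 were lower in KO EB8 and 1 in KO EB5. Of 9 neural progenitor markers tested, 7 were lower at EB8, 5 at EB5 and 1 at EB4, with a summed level at EB8 of 29877 to 33528 in WT and 4875 to 4947 in KO. Their median log2 difference at EB8 was -3.83, also with Dbx1 and Foxb1, which were at the floor of 3 reads in both KO libraries, set to their bounds.

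**Figure D5:**
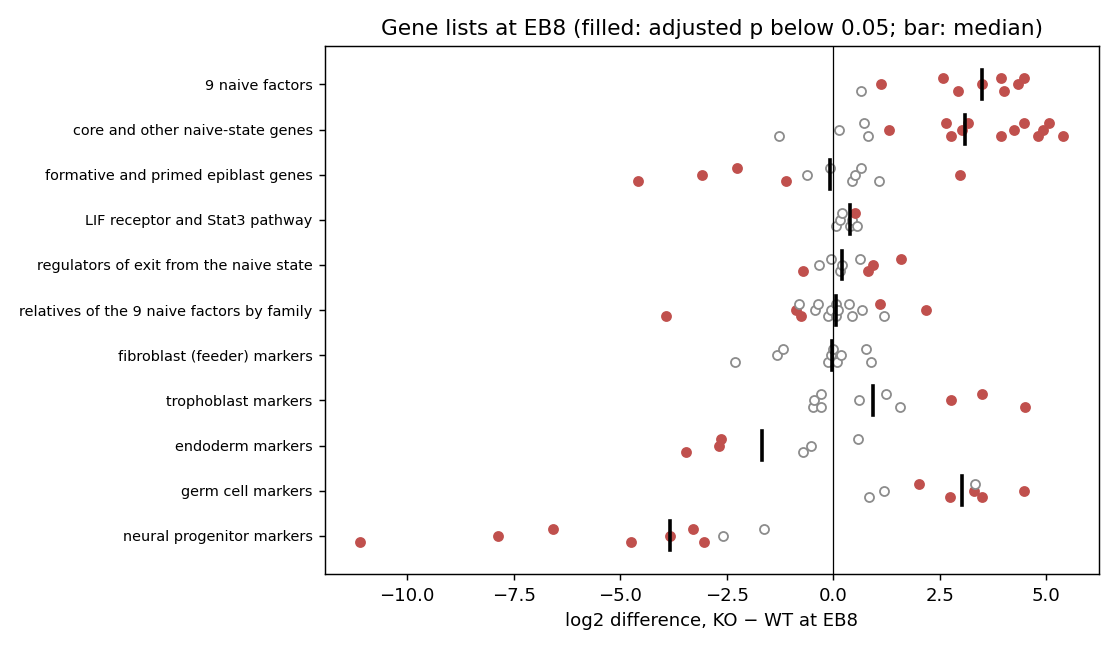
Log2 difference, KO minus WT, at EB8 (x axis) for each tested gene of the 11 lists (rows), filled where the adjusted p is below 0.05, with a bar at the median of the list. The medians of the 9 naive factors (3.50) and of the other core and naive-state genes (3.10) lie to the right, that of neural progenitor markers (-3.83) to the left and that of the relatives by family (0.06) near 0.

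Across the 8 group means the members followed a common profile to different degrees. With each member scaled to equal spread and averaged, Esrrb (r = 0.99) and Nr5a2 (0.99) lay closest to the average, and Klf5 (0.90) and Klf4 (0.82) farthest from it (rho 0.98, 0.98, 0.93 and 0.93). The 36 pairs of members had correlations from 0.61 to 0.997 with a median of 0.92. Among all tested genes, 334 (2.07%) had a correlation with the average above 0.95. The 8 genes outside the group that were most like it were Lpar5, C430002E04Rik, Tcl1, Zfp345, Pnldc1, Gtsf1l, Dtwd2 and AI467606 (r = 0.991 to 0.995, Spearman's rho 0.976 to 1). Tcl1, for example, had 188 and 1472 normalised counts in WT ES, and 634 and 1026 for KO ES. Its EB8 libraries gave 2.1 and 4.24 for WT, against 123 and 120.4 for KO. Lpar5, at the top, reached 115 normalised counts at most. The points share their libraries and the members' own average, so these values are descriptions over 8 groups.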

How the data were processed

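Polyadenylated RNA from 16 mouse libraries (8 groups of 2) was prepared with a kit that does not mark strand and sequenced single-end. Per the submitters' processing notes the tools were CASAVA 1.7 and 1.8, TopHat2 2.0.10, HTSeq 0.5.4p3 and DESeq2 1.0.19, with build mm9. The annotation release and strand setting are not given in the sources used here. The deposited signal is a normalised count for each gene, which the authors obtained by dividing its reads by a library size factor. In each library 100% of values were whole multiples of 1 step (tolerance 0.01 reads), which gave whole reads and the depth, 22442118 to 40711826 reads. Floors of 3 reads cover counting error only.

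Values were fitted with limma 3.58.1 (R 4.3.3) as log2(value + 1), a scale that understates changes of genes with few counts. All libraries entered 1 fit with 8 group means (trended eBayes, residual df 8, prior df 4.27) for 16124 genes with a mean of at least 10. Adjusted p-values are Benjamini-Hochberg over these genes (threshold 0.05). KO was compared with WT at each stage, stages within genotypes, and these changes between genotypes, 16 comparisons in all. The fit was also run on simulated reads with the same dispersion for every gene and independent libraries. The spread between the real replicates was not simulated. Alternatives were a pseudocount of 0.1 or 5, dropping the filter or raising its minimum mean to 50, 2 rescalings, a fit of the compared groups alone, blocks of replicate number, removal of chromosome levels, edgeR 4.0.16 and DESeq2 1.42.0 on the recovered reads, and leaving out each library. Python 3.11.15 was used for other steps.

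The members and the gene lists were chosen with earlier results of these data known. The text names all members, per list up to 4 genes with the largest difference at EB8 and known direct regulators of members, the 8 genes most like the members over group means, and Taf4a. Lifr, Il6st and Dnmt3a at EB4 or EB5, and Col1a1, were named after their values were seen. The lists were core and other naive-state genes, formative and primed epiblast genes, the LIF receptor and Stat3 pathway, regulators of exit from the naive state, relatives by family, and markers of fibroblasts, trophoblast, endoderm, germ cells and neural progenitors. Positions are from GENCODE (build NCBI37, release M1), in which 27603 identifiers were found and 204 were not.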

Additional observations from a re-analysis of the deposited data

Results flagged for a closer look

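The change of 5 factor and step pairs differed between genotypes by the test of the interaction itself, in limma with Benjamini-Hochberg adjustment over all tested genes. Between ES and EB8 the KO change minus the WT change was 3.49 for Esrrb (standard error 0.47, limma adjusted p 0.00245), 2.70 for Tfcp2l1 (0.44, limma adjusted p 0.00506), 3.57 for Prdm14 (0.95, limma adjusted p 0.0416) and 3.16 for Nr5a2 (0.36, limma adjusted p 0.00118). The log2 change of Esrrb was -5.23 in WT and -1.74 in KO, that of Tfcp2l1 -3.91 and -1.22, and that of Nr5a2 -4.55 and -1.39. Prdm14 fell by 4.81 in WT, and its change of -1.23 in KO did not pass. Between EB5 and EB8 the difference was 2.00 for Nr5a2 (0.36, limma adjusted p 0.0265), with changes of -2.38 in WT and -0.38 in KO. The values of Prdm14 rest on 8.4 and 24.4 normalised counts in WT EB8 and on WT ES libraries of 181 and 1025.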

How the results depend on the processing

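For single factors, 988 results under other settings kept their direction and their side of the threshold, while 24 lost a call, 13 gained 1 and 2 reversed. With a library left out, 298 kept both, 48 lost a call, 2 gained 1 and 8 reversed. With a fit of the compared groups alone, 0 factors were called at EB4 and 0 for ES to EB4 in WT. In both, 0 of all 16124 genes passed, so these counts are not particular to the factors. For the genotype difference of the change from EB5 to EB8 the count was 0, with 12 genes higher and 86 lower. These fits have fewer libraries. DESeq2 called 2 factors at ES (Tfcp2l1 and Nr5a2) and 1 for EB4 to EB5 in WT (Klf5, with 407 genes lower in all). It called 3 for ES to EB4 in KO (Klf4, Klf5 and Nr5a2, with 661 genes lower). For EB4 to EB5 in KO it called 1 (Nr0b1, with 365 genes lower). For the genotype difference of EB5 to EB8 it called 2 (Esrrb and Nr5a2, with 134 genes higher). Quantile normalisation also gave 2 for that difference, with 43 genes higher. The genotype difference of Klf4 from ES to EB8 (-0.12) was 0.080 with upper-quartile rescaling and 0.23 with quantile normalisation. The cause was not tested. Upper-quartile rescaling moved the median of all genes at EB8 to 0.11 and gave 2278 genes higher and 1615 lower, against 1677 and 2020.

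With a library left out, the count of factors called ran from 0 to 5 at EB4, 0 to 4 at EB5, 6 to 7 at EB8, 0 to 1 for EB4 to EB5 and 3 to 5 for EB5 to EB8 in WT, 0 to 0 for ES to EB4 in KO, and 0 to 1 for the genotype difference of EB5 to EB8. The log2 difference at ES ran from -0.14 to 1.75 for Klf2, -0.037 to 0.43 for Klf5 and -0.33 to 2.17 for Prdm14. That of Zfp42 ran from -0.75 to 2.01 at EB4, its change from ES to EB4 in WT from -2.16 to 0.60, and the genotype difference of Klf4 from -0.64 to 0.41.

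The replicate number of the labels, fitted as a block, gave 2 factors called for ES to EB4 in KO (Klf4 and Klf5), called Prdm14 for ES to EB4 in WT (limma adjusted p 0.0458) and moved no other count of factors by over 1.5 times. Deviations of same-numbered WT and KO libraries correlated at 0.33 (ES), -0.06 (EB4), -0.21 (EB5) and -0.13 (EB8), so the numbers do not pair the genotypes. After the data were seen, a block was added in which the numbers of KO were exchanged, which moved no count of factors by over 1.5 times, and a block within each genotype, which gave 1 factor at ES (Tfcp2l1) and 3 for ES to EB4 in KO (Klf4, Klf5 and Tfcp2l1); Zfp42 passed for the genotype difference of ES to EB8 under both (limma adjusted p 0.047 and 0.0344). Within KO the numbers correlated at 0.23 to 0.42 between stages, within WT embryoid bodies at 0.52 to 0.61, and between WT ES and WT embryoid bodies at -0.18 to -0.05.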
